A study of Mus musculus with 6 samples.

Results

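Chromatin accessibility was mapped by ATAC-seq, an assay whose transposase cuts open DNA and adds sequencing adapters to it, in mouse embryonic stem cells (ESCs) and in extended or expanded potential stem cells (EPSCs) derived from them. The regions described here are those with a peak in the ESC list and in neither EPSC list. They were chosen by the presence and absence of peaks alone. All peaks of the 3 deposited lists on chromosomes 1 to 19 and X were pooled, peaks overlapping by 1 bp or more were merged, and a merged region was kept where every peak in it came from ESCs, whether near a promoter or distal. This gave 3354 ESC-only regions among 65518 merged regions, which is 5.12% of all regions, and each of them was a single ESC peak. They made up 11.8% (95% Wilson interval 11.4 to 12.1) of the 28528 regions with an ESC peak.

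The 6 libraries came from 3 states of the J1 line of strain 129SV, with 2 technical replicates per state. ESCs were grown in serum medium with 1000 units/ml LIF, 3 μM of the GSK3 inhibitor CHIR99021 and 1 μM of the MEK inhibitor PD0325901, on feeder fibroblasts or gelatin. D-EPSCs were grown in N2B27 with serum replacement, 1000 units/ml LIF, 3 μM CHIR99021, 2 μM dimethindene maleate and 2 μM minocycline hydrochloride. L-EPSCs were grown in serum replacement medium with 1000 units/ml LIF, 3 μM CHIR99021, 1 μM PD0325901, 0.3 μM of the Src-family inhibitor A-419259, 5 μM of the tankyrase inhibitor XAV939, 4 μM JNK inhibitor VIII and 10 μM of the p38 inhibitor SB203580. EPSCs were taken off feeders before ATAC-seq. LIF and CHIR99021 were thus present in all 3 media, and serum in that of ESCs. All states came from 1 line, so the lists describe that line.

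Each state had a single list of peak positions with neither scores nor replicate values, so sequencing depth is unknown. The ESC list was the shortest, with 28965 peaks against 50225 in D-EPSCs and 46601 in L-EPSCs. The absence of a peak is therefore not evidence of closed chromatin, and in bulk samples fewer cells with open DNA and less open DNA per cell cannot be told apart. Intervals below are 95% intervals unless stated, treat regions as independent, and cover counting error only. Over all 22342 coding genes, 11515 had an ESC peak within 1 kb of a coding start. Of 8 ESC identity markers, 5 had an ESC peak within 1 kb of a coding start (Pou5f1, Sox2, Klf4, Zfp42 and Dppa5a), and all 8 had one in each EPSC list. Of 16 fibroblast markers that feeder cells would express, starts of 6 carried peaks in ESCs, of 10 in D-EPSCs and of 6 in L-EPSCs. The 6 with an ESC peak were Thy1, Twist2, Pdgfra, Fbn1, Snai2 and Tagln, and the 10 without one were Col1a1, Col1a2, Col3a1, Twist1, Prrx1, Pdgfrb, Lum, Dcn, Postn and Acta2. Of the merged regions nearest to these markers 11.4% were ESC-only (5 beside 39 others), the highest share of the 16 gene lists described below. Feeder DNA as a part of the ESC-only regions was not tested.

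Open chromatin marks promoters and enhancers, where transcription factors displace nucleosomes and recruit the machinery of transcription. Enhancers lie mostly far from gene starts, in introns or between genes, and they turn over between cell states more than promoters do. In ESCs they are typically bound by pluripotency factors such as OCT4, SOX2, ESRRB and KLF4, and by TCF proteins, the DNA-binding partners of β-catenin in the Wnt pathway. CHIR99021 inhibits GSK3 and thereby stabilizes β-catenin, and XAV939 inhibits tankyrase and thereby stabilizes AXIN, a part of the complex that degrades β-catenin.

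The sequences that carry the motif and repeat results are shown first, all read from mm9. The motif of TCF/LEF factors, searched as ATCAAAGG on both strands, had a larger share in ESC-only regions than in either other kind of single-state region, the only one of 33 motifs searched for which both intervals of the difference, given below, left out 0 on the higher side. The 2 widest ESC-only regions with such a match within 60 bp of the midpoint, outside annotated exons, lay at chr13:94457047-94457728, in an intron of Dmgdh, and at chr4:145720747-145721352, 25.04 kb from the nearest coding start (Gm13247). The 150 bases around their midpoints, on the plus strand at chr13:94457313-94457462 and chr4:145720975-145721124, are given with the matches in capitals.
Dmgdh intron: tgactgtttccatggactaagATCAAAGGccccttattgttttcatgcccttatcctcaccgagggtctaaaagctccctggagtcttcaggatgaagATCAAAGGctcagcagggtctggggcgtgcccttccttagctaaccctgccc
near Gm13247: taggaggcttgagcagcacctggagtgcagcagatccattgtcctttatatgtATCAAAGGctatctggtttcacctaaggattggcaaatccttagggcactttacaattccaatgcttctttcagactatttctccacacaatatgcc
The first window held 2 matches and the second 1. The nearest D-EPSC and L-EPSC peaks were 28420 and 54743 bp from the Dmgdh region, and 3170 and 3169 bp from the Gm13247 region. Another window, chosen after its values were seen, is that of the ESC-only region in an intron of Tet1, a gene of DNA demethylation with no EPSC peak at a coding start. The nearest D-EPSC and L-EPSC peaks were 4633 and 1093 bp from this region. It is given at chr10:62361037-62361186 on the plus strand, with matches of the KLF (CCACACCC), ZFP281 (CCCCTCCCC) and FOXH1 (AATCCACA, 1.30% of all merged regions) motifs on either strand in capitals.
Tet1 intron: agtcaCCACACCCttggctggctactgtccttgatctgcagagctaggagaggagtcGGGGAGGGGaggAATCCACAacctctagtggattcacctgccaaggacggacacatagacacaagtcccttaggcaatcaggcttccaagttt

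Some ESC-only regions shared long stretches of sequence with one another. The exact 31-base sequences held by the largest numbers of ESC-only regions, at most 28 of 3354, were listed after the data were seen, leaving out simple repeats, and those that the results below turn on are given 5′ to 3′ in lower case.
Shared sequence 1: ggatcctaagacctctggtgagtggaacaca
Shared sequence 2: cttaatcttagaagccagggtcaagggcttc
Shared sequence 3: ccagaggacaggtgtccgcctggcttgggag
Shared sequence 4: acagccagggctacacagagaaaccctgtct
Shared sequence 8: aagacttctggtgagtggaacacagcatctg
Examples lay at chr7:84671599-84671629 (minus strand), chr8:26028099-26028129 (plus strand), chr7:147800216-147800246 (plus strand), chr12:84185656-84185686 (plus strand) and chr10:103173084-103173114 (minus strand), in this order. Of these, the second was in an intron of Adam32, the fourth in an intron of Rgs6 and the others between genes. Shared sequence 4 has the letters of the B1 short interspersed element, an abundant rodent retroposon.

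To examine where ESC-only regions lie, each was placed by its midpoint relative to GENCODE genes. Between genes lay 1653 regions (49.3%, 47.6 to 51.0) and in introns of coding genes 1459 (43.5%, 41.8 to 45.2). Coding exons held 88 (2.62%), untranslated regions 50 (1.49%), introns of non-coding genes 59 (1.76%) and non-coding exons 45 (1.34%). The intergenic share was 45.7% (44.9 to 46.5) in D-EPSC-only and 43.4% (42.4 to 44.3) in L-EPSC-only regions.

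ESC-only regions were distal. Their median distance to the nearest coding transcript start was 29565 bp (27949 to 31022), whereas it was 21888 bp (21298 to 22648) for D-EPSC-only regions, 23073 bp (22109 to 23824) for L-EPSC-only regions and 14082 bp (13565 to 14570) for regions of both EPSC lists only. Over 100 kb from any coding start lay 730 ESC-only regions (21.8%), against 14.7% of D-EPSC-only and 14.8% of L-EPSC-only regions. TSS-proximal, with the midpoint within 1 kb of a start, were 145 (4.32%, 3.69 to 5.07). This share was below that of D-EPSC-only regions (8.63%, difference −4.31 percentage points, Newcombe interval −5.10 to −3.44) and of regions of both EPSC lists only (19.2%, difference −14.9 points, −15.8 to −13.9). The difference from L-EPSC-only regions, −0.64 points, had an interval that included 0 (−1.42 to 0.20). These differences turned with the definition of overlap: where ESC peaks were kept unless an EPSC peak overlapped them reciprocally by 50%, 25.7% of 9080 ESC-only peaks were TSS-proximal, 13.2 points more than the D-EPSC peaks kept in the same way and 14.4 points more than the L-EPSC peaks. That definition keeps ESC peaks that overlap a wider EPSC peak over less than 50% of its length. Among the widest 50% of each list the difference from D-EPSC-only regions was −10.1 points. That from L-EPSC-only regions was −2.41 points there, with an interval that left out 0 (−3.82 to −0.90). Its interval also left out 0 with no EPSC peak within 500 bp (−1.06 points) and at a distance of 2.5 kb (−1.56 points).

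**Figure D1:**
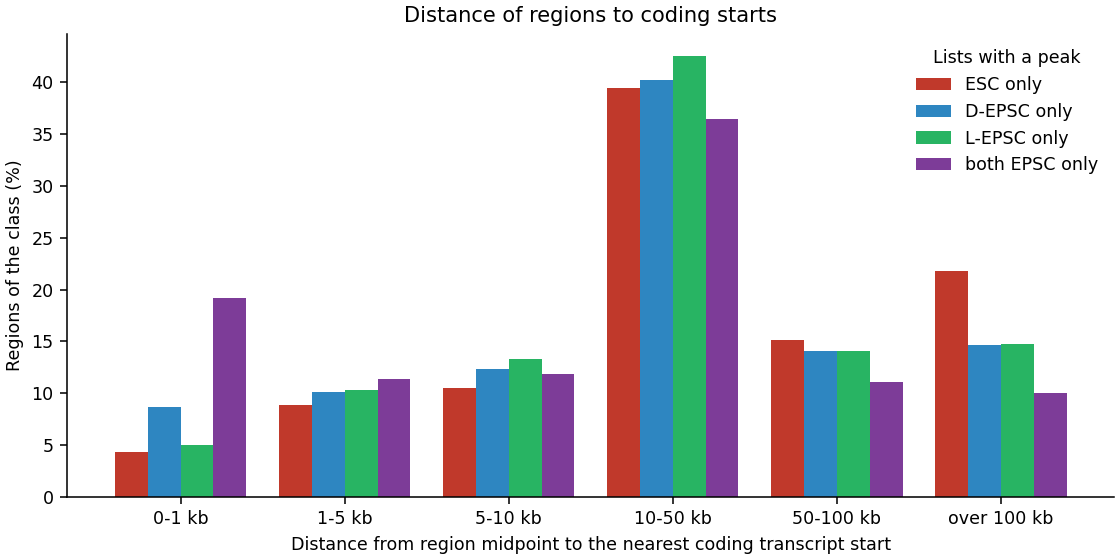
Share of the regions of each class (y axis, percent) by the distance from their midpoint to the nearest coding transcript start (x axis, 6 bins), for ESC-only, D-EPSC-only, L-EPSC-only and both-EPSC-only regions. ESC-only regions have the smallest bar within 1 kb (4.32%) and the tallest beyond 100 kb (21.8%).

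Base composition was low in G and C. The median GC content of ESC-only regions was 49.3% (49.0 to 49.4), against 53.1% (53.0 to 53.3) in D-EPSC-only and 51.0% (50.9 to 51.2) in L-EPSC-only regions, and these intervals did not overlap. With the reciprocal overlap the ESC-only median was 52.4%, which was 0.53 points above that of L-EPSC-only regions and differed by −1.04 points from that of D-EPSC-only regions. Among the ESC-only regions themselves, median GC content was 54.7% in the 145 TSS-proximal and 49.0% in the 3209 distal ones, and the median ratio of observed to expected CpG was 0.348 and 0.181. Split by width into 3 groups of about equal size, the narrowest regions had a median of 50.0% GC, the middle ones 49.5% and the widest 48.4%.

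Of the classes that share an ESC peak, the regions of ESCs and L-EPSCs were closest to ESC-only regions in TSS-proximal share and GC content, although their median distance to a coding start was shorter at 25170 bp (23920 to 27179). Their TSS-proximal share was 3.86% (difference of ESC-only regions 0.46 points, −0.69 to 1.53) and their median GC content 49.3%. Regions of ESCs and D-EPSCs had a TSS-proximal share of 10.8% (difference −6.49 points, −8.28 to −4.85) and a median GC content of 52.1%. Regions of all 3 lists had 47.9% and 57.1%.

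**Figure D2:**
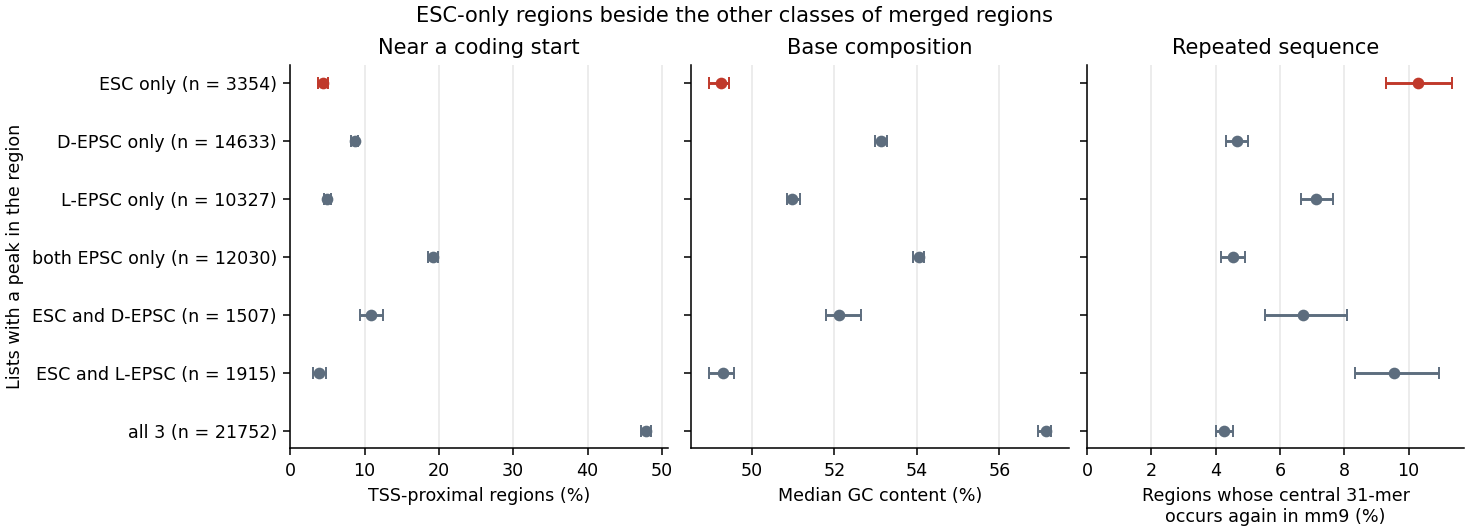
TSS-proximal share, median GC content and share of regions whose central 31 bases occur again in mm9 (x axes, percent) for the 7 classes of merged regions (y axis). Points are values and bars are 95% intervals of counting error, Wilson for shares and order-statistic for medians. The point of ESC-only regions (red) lies beside that of ESC and L-EPSC regions in all 3 panels.

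Width took part in the choice, since a wider region meets another peak more often, so it is given as a description. ESC-only regions were between 128 and 1558 bp wide, with a median of 232 bp and quartiles of 168 and 350 bp. Exactly 128 bp were 260 of them (7.75%) and exactly 168 bp were 688 (20.5%). D-EPSC-only and L-EPSC-only regions gathered at other exact widths, of which the most frequent were 119 bp (7.31%) and 118 bp (8.12%). The widest ESC-only region was intergenic on chromosome X. The next were chr8:10664956-10666303, which was intergenic and 1348 bp wide, and chr16:25037768-25039077, which was intergenic and 1310 bp wide, with a central 31-mer found at 54 places of mm9. The fourth, chr3:89185928-89186961 (1034 bp), lay in an intron of Zbtb7b, a zinc finger gene of T cell fate, and the fifth, chr10:64199253-64200271 (1019 bp), in an intron of the α-catenin gene Ctnna3. Another of the 10 widest, chr2:6248107-6249067 (961 bp), lay in an intron of Usp6nl. The remaining 4 were intergenic and 897 to 991 bp wide.

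The rule turns on a single base of overlap. The ESC-only region closest to an EPSC peak, chr9:118972263-118972452, was 1 bp from it, and the next were 2, 2, 2 and 3 bp away. Just outside the rule, the ESC peaks at chr6:135098750-135098877 and chr8:58170839-58171006 overlapped an EPSC peak by 1 bp, and that at chr13:9309975-9310147 by 2 bp. Within 100 bp of an EPSC peak lay 119 ESC-only regions (3.55%), while 731 of 25611 excluded ESC peaks overlapped EPSC peaks by at most 100 bp. Most ESC-only regions were not at this edge. The median gap to the nearest EPSC peak of either list was 9698 bp, 1703 regions (50.8%) had one within 10 kb, and 3111 regions (92.8%) had one within 100 kb. The median gap was 12632 bp to D-EPSC peaks and 13839 bp to L-EPSC peaks.

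To ask which sequence motifs the regions hold, 33 consensus motifs were searched in the 400 bp around each midpoint, and shares were compared with D-EPSC-only and L-EPSC-only regions by Newcombe intervals at the 99.85% level, which adjusts for 33 motifs. The TCF/LEF motif was more frequent and the E-box less frequent in ESC-only regions than in both. The TCF/LEF difference was known from earlier results of these data when the motifs were chosen, so it is no independent evidence. TCF/LEF matches were in 96 ESC-only regions (2.86%), against 1.61% of D-EPSC-only regions (difference 1.26 points, 0.39 to 2.36), 1.43% of L-EPSC-only regions (1.43 points, 0.54 to 2.54) and 1.42% of all merged regions. The share was also above that of regions of both EPSC lists only (1.29%, difference 1.57 points, 0.71 to 2.68) and of all 3 lists (1.05%, 1.81 points, 0.99 to 2.89). Against regions of ESCs and D-EPSCs (2.19%) and of ESCs and L-EPSCs (1.83%) the intervals included 0 (−1.06 to 2.08 and −0.44 to 2.34).

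With shares weighted to the GC content of ESC-only regions, the TCF/LEF differences were 1.18 points (0.29 to 2.299) from D-EPSC-only and 1.36 points (0.45 to 2.48) from L-EPSC-only regions. The letters read backwards, a control with the same composition, matched 1.55% of ESC-only, 1.13% of D-EPSC-only and 1.104% of L-EPSC-only regions. These shares were also higher in ESC-only regions, by 0.42 and 0.45 points, with intervals that included 0. The comparison did not pass in every subset. Among the widest 50% of each list the shares differed by 0.33 and 0.34 points, with the reciprocal overlap by 0.33 and 0.44 points, and none of these intervals left out 0. In a 200 bp window the difference from D-EPSC-only regions (0.53 points) was no longer called, while that from L-EPSC-only regions was 0.62 points and still called. In regions of 200 to 300 bp the difference from L-EPSC-only regions (1.79 points) was no longer called, while that from D-EPSC-only regions was 2.07 points and still called.

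The 96 TCF/LEF regions were spread over 95 nearest genes, with a median distance of 24.0 kb to a coding start, and 3 were TSS-proximal. More than 1 match was found in 8 of them. Matches were spread over the window: 30 of 104 (28.8%) lay within 50 bp of the midpoint, which takes up 25% of the window. The central 31-mer was repeated in mm9 in 5 of the 96 (5.21%). One region, chr19:55867093-55867516 in an intron of Tcf7l2, which encodes a TCF factor itself, had a listed Wnt pathway gene as its nearest, 50.4 kb from a start. Over all 3354 ESC-only regions, 20 had a listed Wnt pathway gene as their nearest.

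The E-box CACGTG, bound by MYC and USF factors, was in 170 ESC-only regions (5.07%), against 7.52% of D-EPSC-only (difference −2.46 points, −3.75 to −0.96), 7.98% of L-EPSC-only (−2.91 points, −4.30 to −1.35) and 8.02% of all regions. The other classes with an ESC peak had 6.57% (ESCs and D-EPSCs), 6.53% (ESCs and L-EPSCs) and 9.01% (all 3 lists), with no interval computed for these differences. The letters read backwards matched 9.69% of ESC-only, 10.4% of D-EPSC-only and 10.6% of L-EPSC-only regions, so these shares were also lower in ESC-only regions, by less. These calls were lost in the widest 50% of each list (−1.83 and −1.47 points), with the reciprocal overlap (−0.35 and −0.63 points) and in regions of 200 to 300 bp (−3.26 and −3.19 points). With shares weighted to the GC content of ESC-only regions the differences were −1.62 and −2.52 points, and in a 200 bp window −1.399 and −1.92 points, with intervals that still left out 0.

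The KLF motif differed from both in opposite directions, and other motifs from 1 of the EPSC classes. The KLF motif CCACACCC was in 231 ESC-only regions (6.89%), more than the 5.13% of D-EPSC-only (1.76 points, 0.35 to 3.37) and fewer than the 9.25% of L-EPSC-only regions (−2.36 points, −3.94 to −0.61). It was in 10.3% of regions of ESCs and L-EPSCs, in 4.45% of those of ESCs and D-EPSCs and in 6.55% of all regions. The ESRRB/NR5A2 motif TCAAGGTCA was also most frequent in regions of ESCs and L-EPSCs (3.29%), with 1.85% of ESC-only, 1.05% of D-EPSC-only (0.80 points, 0.12 to 1.72) and 2.40% of L-EPSC-only regions (−0.55 points, −1.36 to 0.44), and 1.47% of all regions.

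Lower than in D-EPSC-only regions were ZFP281 (CCCCTCCCC, 4.59% against 8.78%, all regions 7.84%), SP (GGGGCGGGG, 1.73% against 5.13%, all regions 7.92%), TFAP2 (GCCNNNGGC, 12.9% against 16.0%, all regions 20.2%), AP-1 (TGACTCA, 7.22% against 9.27%, all regions 7.49%) and OTX2 (CTAATCC, 2.77% against 4.22%, all regions 3.08%). In all 5 the interval against L-EPSC-only regions included 0. ESC-only regions also had a lower median GC content than D-EPSC-only regions (49.3% against 53.1%), and GC-weighted shares are not given for these 5. Read backwards, the letters of TFAP2 (2.00% against 3.78%) and OTX2 (2.86% against 3.20%) were also less frequent in ESC-only regions. Those of AP-1 were not (7.04% against 6.80%), and those of ZFP281 and SP read the same backwards. CTCF, the insulator protein, had matches in 3.16% of ESC-only, 3.82% of D-EPSC-only, 5.38% of L-EPSC-only (difference −2.22 points, −3.34 to −0.93) and 4.79% of all regions. The octamer ATGCAAAT of OCT4 and other POU factors was in 3.10% of ESC-only regions, 2.88% of D-EPSC-only, 2.75% of L-EPSC-only and 2.85% of all regions, with intervals of the differences from −0.73 to 1.39 and from −0.64 to 1.54 points. The OCT4-SOX2 composite in its exact form was in 1 ESC-only region, so that it was too rare to compare.

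**Figure D3:**
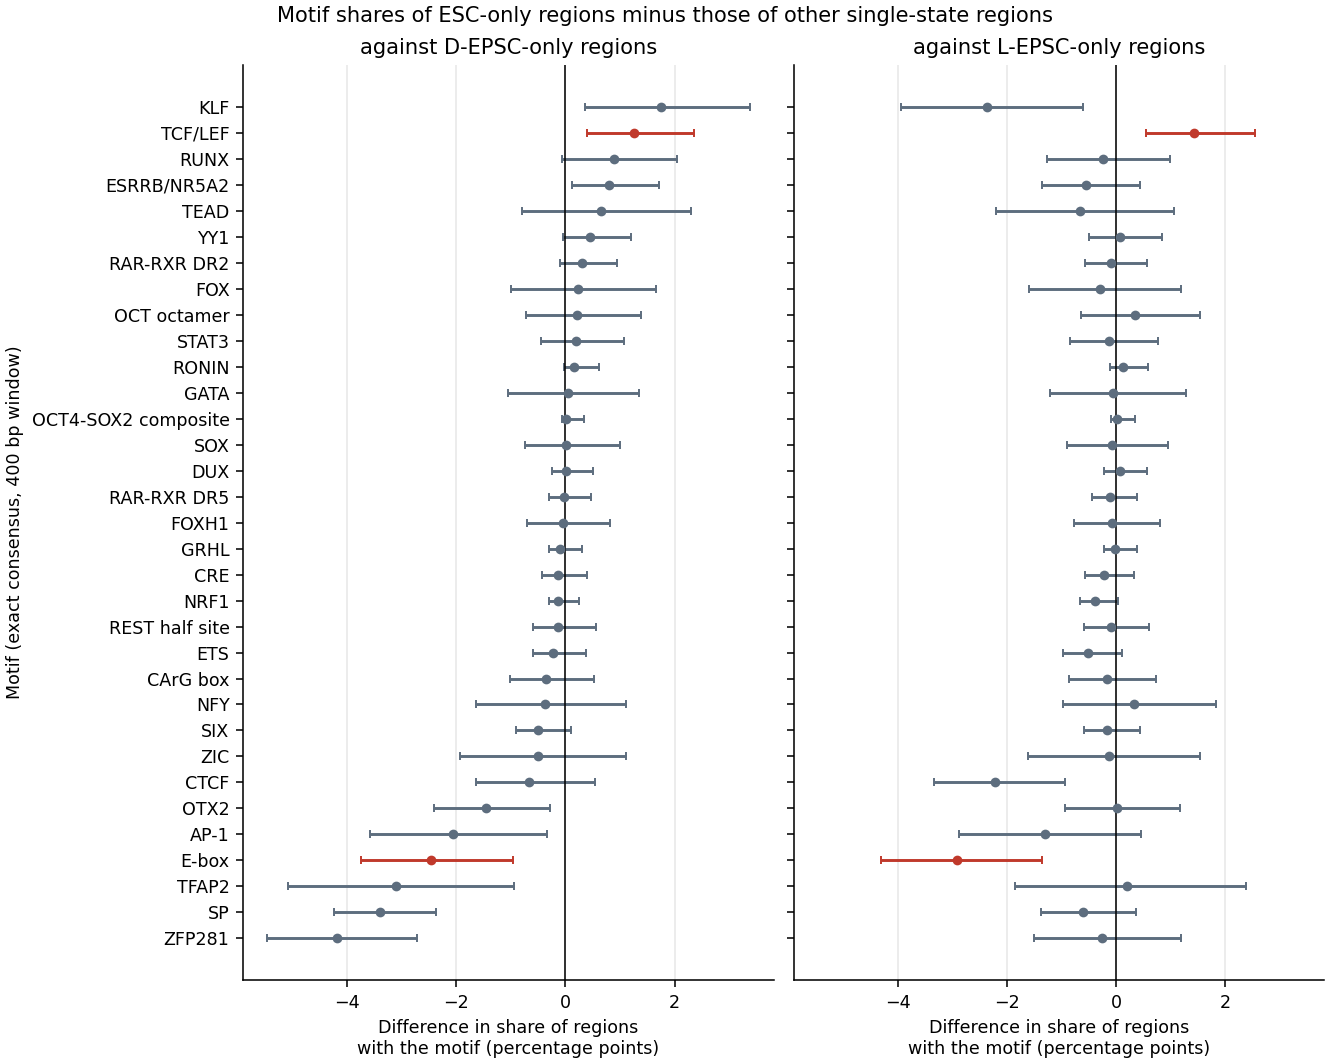
Share of ESC-only regions with each of 33 motifs minus that of D-EPSC-only (left) and L-EPSC-only regions (right), in percentage points, with 99.85% Newcombe intervals that cover counting error. TCF/LEF (1.26 and 1.43 points) and E-box (−2.46 and −2.91 points), in red, lie on the same side of 0 in both panels, and KLF lies on opposite sides.

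Repeated sequence was frequent in ESC-only regions. The central 31 bases occurred at least once more in mm9 in 345 of them (10.3%, 9.30 to 11.4), against 4.67% of D-EPSC-only (difference 5.62 points, 4.57 to 6.74), 7.13% of L-EPSC-only (3.16 points, 2.05 to 4.34) and 4.54% of regions of both EPSC lists only (5.75 points, 4.69 to 6.88). The interval of the difference from regions of ESCs and L-EPSCs (9.56%) included 0 (−0.98 to 2.37). Over 100 places were found for the central 31-mer of 111 ESC-only regions (3.31%) and over 1000 places for 48 (1.43%), against 1.11% and 0.56% of D-EPSC-only and 1.85% and 0.84% of L-EPSC-only regions. With the reciprocal overlap the ESC-only share was 6.61%. The difference from D-EPSC-only regions was then 1.74 points (1.17 to 2.34), and that from L-EPSC-only regions was 0.35 points with an interval that included 0. Where any of 5 31-mers was counted, the shares were 22.9% of ESC-only, 12.7% of D-EPSC-only and 17.5% of L-EPSC-only regions. The authors had removed read pairs of low mapping quality before peaks were called, and the part of mapping in these shares was not tested.

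Repeats were unequal among the ESC-only regions. TSS-proximal regions had a repeated central 31-mer in 4 of 145 (2.76%, 1.08 to 6.88) and distal ones in 341 of 3209 (10.6%, 9.61 to 11.7). The share was 8.84% in the narrowest, 9.86% in the middle and 12.2% in the widest of the 3 width groups. Simple repeats of CA were in 4.50% of ESC-only regions, against 4.01% of D-EPSC-only (difference 0.49 points, −0.24 to 1.31) and 3.24% of L-EPSC-only regions (1.26 points, 0.51 to 2.08).

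At least 1 non-simple 31-mer was shared with another ESC-only region by 471 regions (14.0%), which formed 37 groups, the largest with 274 regions. No such count is given for the other classes, so this share has no background to be set against. Shared sequence 1 occurred at 3302 places in mm9 and was in 28 ESC-only regions on 12 chromosomes (0.83%), in 5 D-EPSC-only regions (0.034%), 7 L-EPSC-only regions (0.068%), 4 regions of both EPSC lists only (0.033%), 6 regions of ESCs and L-EPSCs (0.31%), 3 regions of ESCs and D-EPSCs (0.20%) and 15 regions of all 3 lists (0.069%). Median GC content of the 28 was 61.5%, and their median distance to a coding start was 152 kb. Shared sequence 2, with 221 places in mm9, was in 17 ESC-only regions (0.51%) and 18 regions of ESCs and L-EPSCs (0.94%) but in 1 D-EPSC-only region, 6 L-EPSC-only regions and 3 regions of all 3 lists. Regions holding it in ESCs only had a median GC content of 41.8%.

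The other shared sequences had other profiles. Shared sequence 8 is not unrelated to shared sequence 1, since its start repeats most of the end of shared sequence 1 with a single different base. Shared sequence 3 was in 13 ESC-only regions (0.39%) and in 13 regions of ESCs and D-EPSCs (0.86%). It was also in 14 D-EPSC-only, 7 L-EPSC-only and 13 both-EPSC-only regions, in 5 of ESCs and L-EPSCs and in 13 of all 3 lists. Shared sequence 8 was in 7 ESC-only regions (0.21%), in 8 regions of ESCs and D-EPSCs (0.53%), in 48 regions of all 3 lists (0.22%) and in none of ESCs and L-EPSCs. Shared sequence 4, the B1 sequence, had 26704 places in mm9 and was in 12 ESC-only regions (0.36%) and in 0.11% to 0.21% of the regions of the other 6 classes. As these sequences were picked for being frequent in ESC-only regions, their shares in the classes are a description and carry no test. None of the regions holding any of the 8 most shared sequences was TSS-proximal among ESC-only regions.

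**Figure D4:**
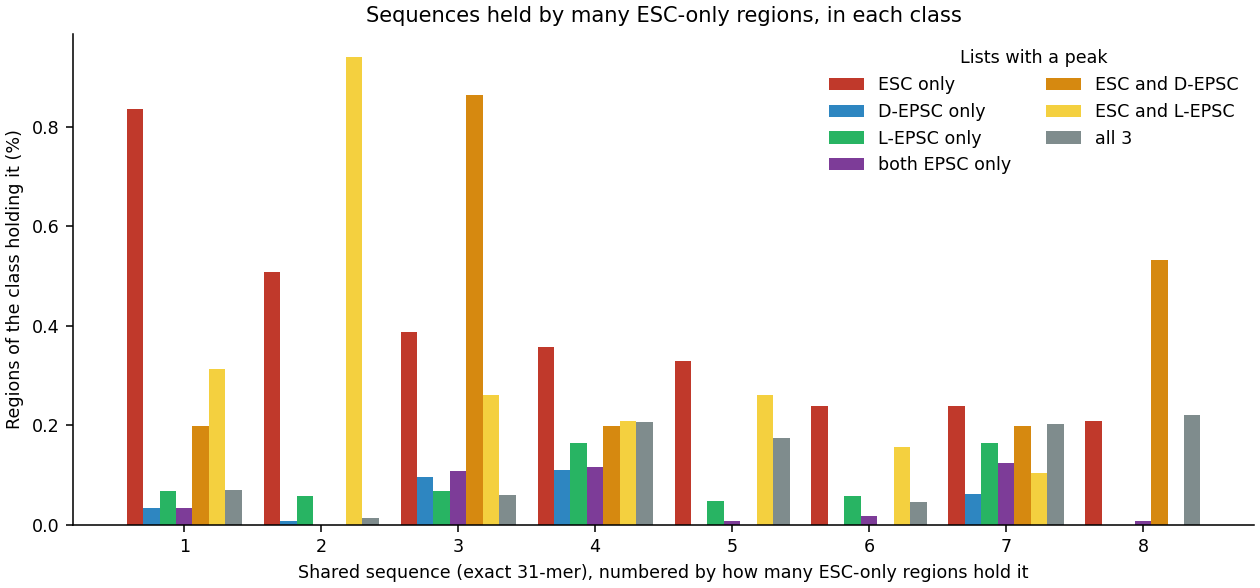
Share of the regions of each of 7 classes (y axis, percent) that hold each of the 8 exact 31-mers shared by the largest numbers of ESC-only regions, from 28 for sequence 1 to 7 for sequence 8 (x axis, numbered by how many hold it). Sequences 1 and 4 to 7 are most frequent in ESC-only regions, 2 in regions of ESCs and L-EPSCs, and 3 and 8 in regions of ESCs and D-EPSCs.

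To examine which genes lie near ESC-only regions, each region was given to the coding gene with the nearest transcript start. Of 22342 coding genes, 2693 (12.1%) were nearest to at least 1 ESC-only region, 372 genes had 2, 93 had 3, 19 had 4, 6 had 5, 2 had 6 and 2 had 7, so that 122 genes (0.546%) had 3 or more. The number with at least 1 was 6225 with the reciprocal overlap and 1737 in the widest 50% of each list. The 20 genes with the most, ties going to those with fewer regions of other classes, were between 3.37 and 1643 kb long. Lrig3, which encodes a membrane protein with leucine-rich repeats (chr10:125403275-125452415), had 7 ESC-only regions at 16.7 to 298 kb from a start, none of them in the gene body, beside 12 regions of other classes. Csmd1, a membrane protein gene of 1643 kb (chr8:15892537-17535586), had 7, of which 3 lay in the gene, beside 22 of other classes.

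Adcyap1, which encodes the neuropeptide PACAP (chr17:93598762-93604825), had 6 ESC-only regions and 12 others, and Cdh13, which encodes T-cadherin (chr8:120807633-121848821), had 6 and 25 others. With 5 each followed Cdh20, another cadherin gene, the oxidation resistance gene Oxr1, the netrin receptor gene Unc5d, the kinase gene Camk1g, Arid1b, which encodes a subunit of the BAF chromatin remodeller, and Tiam1, which encodes an activator of the GTPase Rac. Tiam1 was the most compact of these, with 4 of 5 ESC-only regions in the gene and all within 2.26 to 40.4 kb of a start, but it also had 31 regions of other classes.

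Among the genes with 4, ESC-only regions outnumbered all others together near Amy2a5, an amylase gene (1 other), the bile acid transporter gene Slc10a2 (2 others), 1700018B24Rik (3 others) and Scn3a, which encodes a sodium channel subunit (3 others). They equalled the others near the calcium pump gene Atp2b1, the adhesion gene Cadm2 and the methyltransferase gene Mettl4 (4 others each). The remaining genes by the same rule were Gtf2a1 (5 others), Smurf1, which encodes a ubiquitin ligase of BMP receptor SMADs (8 others, 3 of 4 ESC-only regions in the gene), and the glutamate receptor gene Grm7 (9 others).

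Beside the ESC-only share of 5.12% among all merged regions, some ESC-only regions followed one another directly. Of the stretches of merged regions with no other class between, 2865 held 1 ESC-only region, 215 held 2, 17 held 3 and 2 held 4. The 2 longest lay upstream of Cadm2 at chr16:68073817-68563193 and, at chr12:68368399-68962844, between regions nearest to Mdga2 and Rpl17-ps3. Cadm2 and Mdga2 encode cell adhesion proteins of the nervous system. Among the stretches of 3, one spanned 19613 bp near Lhx8 and another 48717 bp near Mgam. The median distance from the midpoint of an ESC-only region to that of the nearest other one was 191079 bp.

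At promoters, an ESC-only region overlapped the 1 kb on either side of a coding start in 157 genes (0.703% of 22342), but 97 of these genes had an EPSC peak at a start as well. The remaining 60 genes (0.269%) had none, among 11515 genes with an ESC peak at a start. In the widest 50% of each list the number was 117. They shared 57 regions with a median width of 322 bp and a median GC content of 56.5%. The midpoint lay downstream of the start in 34 of the 60.

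The widest such region was 625 bp, at chr6:83020532-83021156, with its midpoint at −557 bp from the start of Tlx2, a homeobox gene of the enteric nervous system. That at chr11:72248616-72249192 (577 bp) lay at −124 bp from the start of Ggt6, a gamma-glutamyltransferase gene. At chr13:94444095-94444534 a region of 440 bp covered the divergent starts of Bhmt2 and Dmgdh, whose enzymes act on methionine-cycle and choline metabolites, and this is the gene whose intron held the first TCF/LEF window shown above. The nearest EPSC peak to that promoter was 15468 bp away.

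The other named genes are the rest of the 20 with the widest such regions. Among them were Klk10, a kallikrein, Hsd17b2, a steroid dehydrogenase, Gp1bb, a platelet receptor subunit, Mt4, a metallothionein of epithelia, Fxyd4, an ion transport regulator, Olfr71, an olfactory receptor, Slc6a7, a proline transporter, and Grip2, a scaffold protein. Klhl4, Cmtm2b with the adjoining Gm11020, Fam179a, A730049H05Rik, C030030A07Rik, 9130014G24Rik and 4933416C03Rik complete this set. The gap to the nearest EPSC peak was between 804 bp (Klk10) and 137760 bp (Klhl4). Hesx1, a homeobox gene of the early forebrain and of pluripotent cells, was noticed after the values were seen, with a region of 329 bp at chr14:27813857-27814185 in a coding exon, 473 bp downstream of the start and 5804 bp from the nearest EPSC peak.

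To examine genes known for pluripotency, signalling and lineage, 16 gene lists were compared by the share of the merged regions nearest to their genes that were ESC-only, which was 5.12% over all merged regions. The lists were chosen with earlier results known, and their shares are a description. For core and naive pluripotency genes it was 5.49%, with 15 ESC-only regions nearest to 9 of 25 genes. These were Nr5a2 (3 regions), which encodes an orphan nuclear receptor, Esrrb, Klf5, Tcfcp2l1 and Tbx3 (2 each) and Klf2, Zfp42, Sall4 and Tcfap2c (1 each), and none lay at a start. Nr5a2 also had 2 D-EPSC-only, 8 L-EPSC-only and 3 both-EPSC-only regions. The widest region of Nr5a2, chr1:138783705-138784271 (567 bp), was intronic, 66219 bp from a coding start and 30575 bp from the nearest EPSC peak. Formative and primed genes had ESC-only regions at 3 of 19 genes (2.74% of their regions), and two-cell-like genes at 2 of 13 (8.33%).

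Among signalling lists, 17 of 46 Wnt pathway genes and targets had 20 ESC-only regions (6.43%). They included the genes of β-catenin (Ctnnb1), Axin2 (2 regions), Apc and Gsk3b, those of the factors TCF7L1 and TCF7L2 (1 and 2 regions), and Sp5, a Wnt target. D-EPSC-only regions were nearest to 32 of the 46 genes and L-EPSC-only regions to 27. Tcf7l2 also had 6 D-EPSC-only and 7 L-EPSC-only regions. The factor genes Tcf7 and Lef1 had no ESC-only region, and Lef1 had 7 D-EPSC-only regions. The region at Sp5 was the one in this list at a start with no EPSC peak, chr2:70313173-70313340 (168 bp), in the untranslated region 277 bp from the start, with D-EPSC and L-EPSC peaks 659 and 1035 bp away. Genes of LIF and Stat3 signalling had 1 ESC-only region (1.11%), at 1 of 15 genes. FGF and ERK feedback genes had them at 6 of 30 (3.03%), with 1 at a start of the receptor gene Fgfr1, chr8:26623697-26623971, where EPSC peaks lay as well. Nodal, BMP and TGF-β genes had them at 5 of 30 (3.91%), of which the inhibitory SMAD gene Smad7 had 3 beside 6 D-EPSC-only, 9 L-EPSC-only and 4 both-EPSC-only regions, and serum response and YAP targets at 4 of 29 (3.02%).

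Polycomb and DNA methylation genes had 17 ESC-only regions at 8 of 23 genes (9.24%). Jarid2, which encodes a cofactor of Polycomb complex PRC2, had 4, and the DNA demethylation genes Tet1 and Tet2 had 3 each. All of them had EPSC regions too: nearest to Jarid2 were 12 D-EPSC-only, 8 L-EPSC-only and 12 both-EPSC-only regions, to Tet1 2, 4 and 2, and to Tet2 3, 3 and 4. The region of Jarid2 at chr13:44935093-44935335 lay 846 bp from a start and 42 bp from a D-EPSC peak. Besides the window shown above, Tet1 had a region of 603 bp at chr10:62306553-62307155, 2727 bp from an L-EPSC peak, and one of 192 bp, 306 bp from an L-EPSC peak. The region of Tet2 at a start, chr3:133151322-133151548, was in a coding exon, 17645 bp from the nearest EPSC peak, although another start of the gene had an EPSC peak.

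Of lineage lists, trophoblast genes had ESC-only regions at 7 of 22 genes (7.44%), of which Gata3, a transcription factor gene, had 3, at 50469 to 435245 bp from a coding start, beside 2 D-EPSC-only, 1 L-EPSC-only and 1 both-EPSC-only region. Primitive endoderm genes had them at 4 of 19 (4.90%) and mesoderm and neural genes at 7 of 30 (4.66%). Extracellular matrix and adhesion genes had them at 5 of 24 (4.48%) and glucose metabolism genes at 2 of 22 (2.08%). Fibroblast markers had 5 ESC-only regions beside 39 others (11.4%), of which the one at Twist2, a mesenchymal transcription factor gene, lay 509 bp from a start and 484 bp from a D-EPSC peak. Of 8 genes that the study named as examples of a longer ESC signature, 4 had them (6.93%), namely Nr5a2, Myst4, Fgf10 and Eya1. The signature was chosen on these cells and the rest of it was not used here, so this is not independent evidence.

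Across chromosomes, ESC-only regions made up between 8.84% (chromosome 19) and 13.8% (chromosomes 3 and 8) of the regions with an ESC peak. Chromosome 8 exceeded the rest by 2.24 points (0.78 to 3.83) and chromosome 3 by 2.17 points (0.42 to 4.11). Chromosomes 7, 11 and 19 were lower than the rest, by −2.50 (−3.80 to −1.05), −2.47 (−3.75 to −1.04) and −3.004 points (−4.84 to −0.78). These 95% intervals are not adjusted for 20 chromosomes. On the X chromosome the share was 10.8% (58 of 539), with an interval of the difference that included 0 (−3.39 to 1.91).

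**Figure D5:**
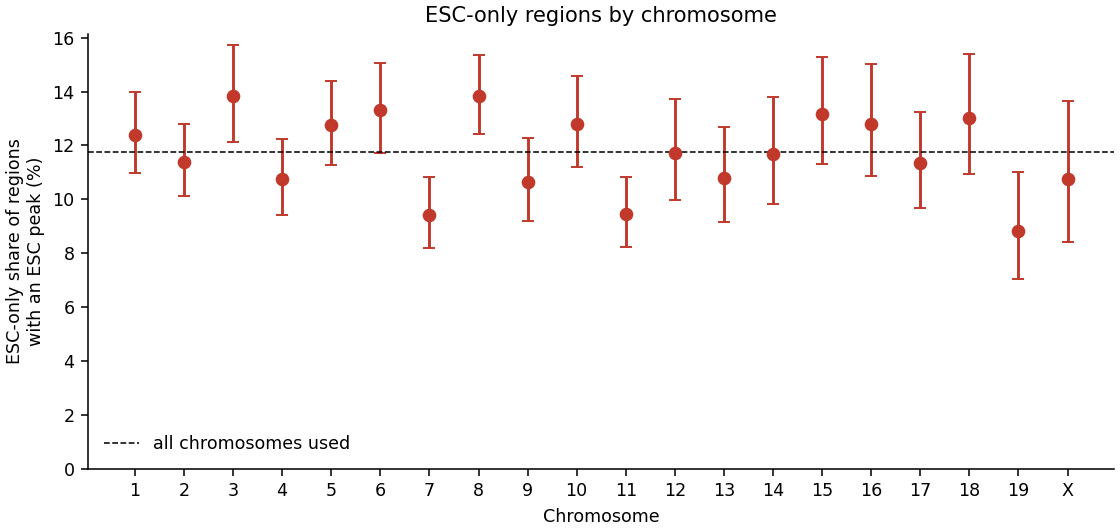
Share of the regions with an ESC peak that are ESC-only (percent) on each of 20 chromosomes, with 95% Wilson intervals of counting error. Chromosomes 3 and 8 have the highest shares (13.8%) and chromosome 19 the lowest (8.84%).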

How the data were processed

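ATAC-seq peak positions of 3 states were analysed, each a single list for 2 technical replicates. Per the labels and the study's methods, the authors trimmed reads with Trim Galore 0.6.3, aligned them to mm9 with Bowtie2 2.3.5, filtered them with SAMtools 1.10 for proper pairs and mapping quality, and ran the MACS peak caller with its default settings. How replicates were combined, removal of duplicates and correction for the transposase offset are not given in the sources used here. The lists deposited by the authors hold peak start and end positions in base pairs, with no score, count or p-value, so depth is unknown.

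Peaks overlapping by 1 bp were merged with Python 3.11.15, numpy 2.4.6 and pandas 2.3.3, and the code was tested on simulated data. Midpoints were compared with GENCODE M1 coding starts (1 kb). Exact motif letters were searched on both strands in 400 bp, and copies of the central 31-mer were counted in mm9 with pysam 0.24.0. Shares have Wilson or Newcombe intervals and medians have order-statistic intervals, and no p-value was computed. Named genes were the 20 nearest to the most ESC-only regions, the 20 with the widest ESC-only region at a start without an EPSC peak, listed genes with at least 3 or one at a start, and other genes said to be chosen after their values were seen or given as members of a list. Of 345 listed symbols, 4 were not in the annotation. The members and lists were chosen with earlier results of these data known. The position of one wide region and one stretch of consecutive regions are not reported here. Alternatives changed the overlap rule, width, distance, window and number of 31-mers.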

Additional observations from a re-analysis of the deposited data

Results flagged for a closer look

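Peaks on the mitochondrial genome lay outside the comparisons, which used chromosomes 1 to 19 and X. There were 2 mitochondrial peaks in the ESC list, 2 in the D-EPSC list and 2 in the L-EPSC list.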

How the results depend on the processing

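No paired analysis was possible because each state has a single peak list without values per replicate. Leaving out a replicate could not be run for the same reason. Of the alternative values of the main results, 19 moved, which for a count means by more than 1.5 times and for a share or median beyond its 95% interval, and the other 18 changed by less. Among these, 1899 genes had an ESC-only region nearest within 50 kb, and 80 had an ESC-only start at 2.5 kb. Requiring a reciprocal overlap of 50%, which keeps more ESC peaks by construction, gave 9080 regions, a TSS-proximal share of 25.7%, a median GC content of 52.4%, a median width of 252 bp, repeated 31-mers in 6.61%, 6225 nearest genes and 7 differing motifs. It reversed the TSS-proximal differences to 13.2 points from D-EPSC-only and 14.4 points from L-EPSC-only regions, and the GC difference from L-EPSC-only regions to 0.53 points. The widest 50% of each list gave 1928 regions, a TSS-proximal share of 7.83%, a median width of 467.5 bp, 1737 nearest genes, 117 genes with an ESC-only start and 0 differing motifs. The TSS-proximal share was 2.93% with no EPSC peak within 500 bp and 7.63% at a distance of 2.5 kb. Median GC content over 400 bp was 48.8%, and any of 5 31-mers was repeated in 22.9%. In place of 2 differing motifs, 1 was found in a 200 bp window and 0 in regions of 200 to 300 bp. The TSS-proximal difference from L-EPSC-only regions, not called in the main comparison, left out 0 with no EPSC peak within 500 bp (−1.06 points), in the widest 50% (−2.41 points) and at 2.5 kb (−1.56 points). Where construction does not show it, the cause was not tested. Depth, which is unknown, limits every absence of a peak.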

Other observations

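Some ESC-only regions lay at starts of non-coding genes. Within 1 kb of a lincRNA start were 8 of them (0.24%, against 1.44% of all merged regions), of a processed transcript 15 (0.45% against 1.15%), of a miRNA 4 (0.12% against 0.30%), of a pseudogene 19 (0.57% against 0.50%), of a snoRNA 9 (0.27% against 0.21%) and of a snRNA 5 (0.15% against 0.15%). The lincRNA genes included the snoRNA hosts Snhg7 and Snhg12 and 5730457N03Rik, whose region chr6:52264877-52265097 lay 161 bp from the start. Among miRNAs, Mirlet7g, a member of the let-7 family that is known for restraining pluripotency genes, had a region of 285 bp at chr9:106081833-106082117, 804 bp from the start.

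Of windows of 1 Mb, 760 held 1 ESC-only region and 452 held 2, and 7 windows held 7. The window with the most, at 12 to 13 Mb of chromosome 15, held 8 among 54 merged regions, where the share over all merged regions was 5.12%. The window at 125 to 126 Mb of chromosome 10, near Lrig3, held 7 among 19, and that at 5 to 6 Mb of chromosome 8, near Slc10a2, held 6 among 15. These windows were picked for their counts and carry no test.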
